A study of Mus musculus with 27 samples.

Results

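The genes described are the Wnt ligands, their Frizzled and Lrp receptors, the secreted inhibitors and a set of target and feedback genes, 45 genes chosen by name and not by their values. Of these, 44 had an array row carrying their symbol alone and were measured: 19 ligands, 12 receptors, 9 secreted inhibitors and 4 target or feedback genes, out of 22180 genes in all. Tcf7 was not named in the probe table used and was not analysed here. Expression was measured on 1 array per tumour in 27 prostate tumours, each from a different F2 male of the cross between C57BL/6-Tg(TRAMP)8247Ng/J and PWK/PhJ mice. All 27 males were transgene-positive, from Tg- sires and Tg+ dames, so every tumour carries the TRAMP transgene. As general knowledge, that transgene places the SV40 early region under the probasin promoter, which is active in prostate epithelium, and PWK/PhJ is a wild-derived strain. Tumours were scored at 30 weeks, or earlier where a humane endpoint came first, so the ages can differ; single ages were not used here. The labels put all tumours in 1 group, and tumours are named by animal number, such as P966.

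Wnt proteins are lipid-modified signals that bind Frizzled receptors together with the co-receptors Lrp5 and Lrp6. In the canonical branch this stops the destruction of beta-catenin, which then acts with Lef1 and Tcf factors on target genes. Axin2, Nkd1 and Notum are targets of this kind that also restrain the pathway, and secreted proteins of the Dkk, Sfrp and Wif families act on the ligands or the co-receptors. In the prostate, Wnt signals between stroma and epithelium take part in the budding and branching of ducts.

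Promoter windows are shown for Axin2, Nkd1, Lef1 and Wif1, whose levels were highest in the same 3 tumours described below. Each runs 5′ to 3′ from 250 bases before to 50 bases after a transcription start in RefSeq (GRCm38.p6), and capitals mark CTTTG or its reverse complement CAAAG, the core letters bound by Lef1 and Tcf factors. The Axin2 window is chr11:108920099-108920398, plus strand. The Nkd1 window is chr8:88527383-88527682, plus strand. The Lef1 window is chr3:131110047-131110346, plus strand, the first of 4 listed for that gene. The Wif1 window is chr10:121033754-121034053, plus strand.
Axin2: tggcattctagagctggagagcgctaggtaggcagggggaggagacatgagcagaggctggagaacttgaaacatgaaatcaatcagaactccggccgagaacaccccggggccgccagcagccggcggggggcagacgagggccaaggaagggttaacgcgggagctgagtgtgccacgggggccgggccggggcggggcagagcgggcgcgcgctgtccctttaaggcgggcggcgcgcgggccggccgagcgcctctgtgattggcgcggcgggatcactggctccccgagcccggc
Nkd1: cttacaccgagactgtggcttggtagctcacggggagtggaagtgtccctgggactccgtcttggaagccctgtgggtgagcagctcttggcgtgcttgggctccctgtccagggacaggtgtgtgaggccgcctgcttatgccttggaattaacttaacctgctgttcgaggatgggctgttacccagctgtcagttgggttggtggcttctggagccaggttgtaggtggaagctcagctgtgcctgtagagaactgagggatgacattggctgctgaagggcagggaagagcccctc
Lef1: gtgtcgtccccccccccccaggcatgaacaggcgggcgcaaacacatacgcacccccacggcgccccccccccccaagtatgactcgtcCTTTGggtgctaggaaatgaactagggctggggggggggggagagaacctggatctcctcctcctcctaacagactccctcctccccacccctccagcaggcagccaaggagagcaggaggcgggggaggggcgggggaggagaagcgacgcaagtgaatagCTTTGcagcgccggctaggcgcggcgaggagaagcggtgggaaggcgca
Wif1: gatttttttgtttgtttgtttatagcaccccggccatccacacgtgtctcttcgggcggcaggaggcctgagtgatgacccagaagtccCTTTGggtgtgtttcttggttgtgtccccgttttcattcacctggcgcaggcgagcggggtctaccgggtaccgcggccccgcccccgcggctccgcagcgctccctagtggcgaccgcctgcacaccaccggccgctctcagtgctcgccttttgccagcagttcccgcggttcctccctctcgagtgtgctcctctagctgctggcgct
The letters occur at positions 90 and 252 of the Lef1 window and at position 90 of the Wif1 window, counted from the 5′ end. They do not occur in the Axin2 and Nkd1 windows, which says only that these letters are not in these 300 bases. Over all 32851 RefSeq windows of this length 53.9% hold CTTTG on either strand, and 19 of the 38 windows counted for 31 members do. Windows on 1 chromosome were left out of the member count but not of the count over all windows. The longer forms CTTTGAA and CTTTGAT, which both contain CTTTG, occur on either strand in 5.14% and 3.73% of all windows and in 1 and 2 of the 38 member windows.

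Taken by role, the Wnt receptors, secreted inhibitors and target or feedback genes varied more between tumours than most genes on the arrays. The ligands as a set did not. The highest tumour exceeded the lowest by more than 4-fold for 25 of 44 members, against 25.3% of all genes. Without the tumours P966, P471 and P1276, described below, it was 14 of 44 (31.8%), against 21.5% of all genes. Over all 27 tumours the 25 were 5 of 19 ligands, 9 of 12 receptors, 7 of 9 secreted inhibitors and all 4 target or feedback genes. The median SD over the 27 tumours was 0.67 log2 for the members, against 0.30 for all genes. By role it was 0.26 for the ligands, 0.74 for the receptors, 0.69 for the inhibitors and 1.25 for the target or feedback genes. Without P966, P471 and P1276 it was 0.39 for the members and 0.29 for all genes. Of the ligands, Wnt1, Wnt3a, Wnt8a, Wnt8b and Wnt10b stayed below 5.75 log2, the median of all values, in every tumour. No detection call was available. Some members ranging over more than 4-fold were also below 5.75 log2 in most tumours, such as Wnt16, Fzd10 and Frzb (medians 4.08, 3.77 and 4.12). The other ligands with a range under 4-fold were Wnt2, Wnt2b, Wnt3, Wnt4, Wnt5b, Wnt7b, Wnt9a, Wnt9b and Wnt11, with log2 ranges between 0.88 and 1.72. Fzd5, Fzd9 and Lrp6 among the receptors (log2 ranges 1.99, 1.02 and 1.23) and Dkk1 and Sfrp4 among the inhibitors (0.86 and 1.55) also stayed under 4-fold. Lrp6 has a second array row, not used here, which ran over more than 4-fold, from 4.83 to 6.96 log2, with P217 highest. Array signals of different genes are not set against each other here, since they depend on the probes.

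**Figure D1:**
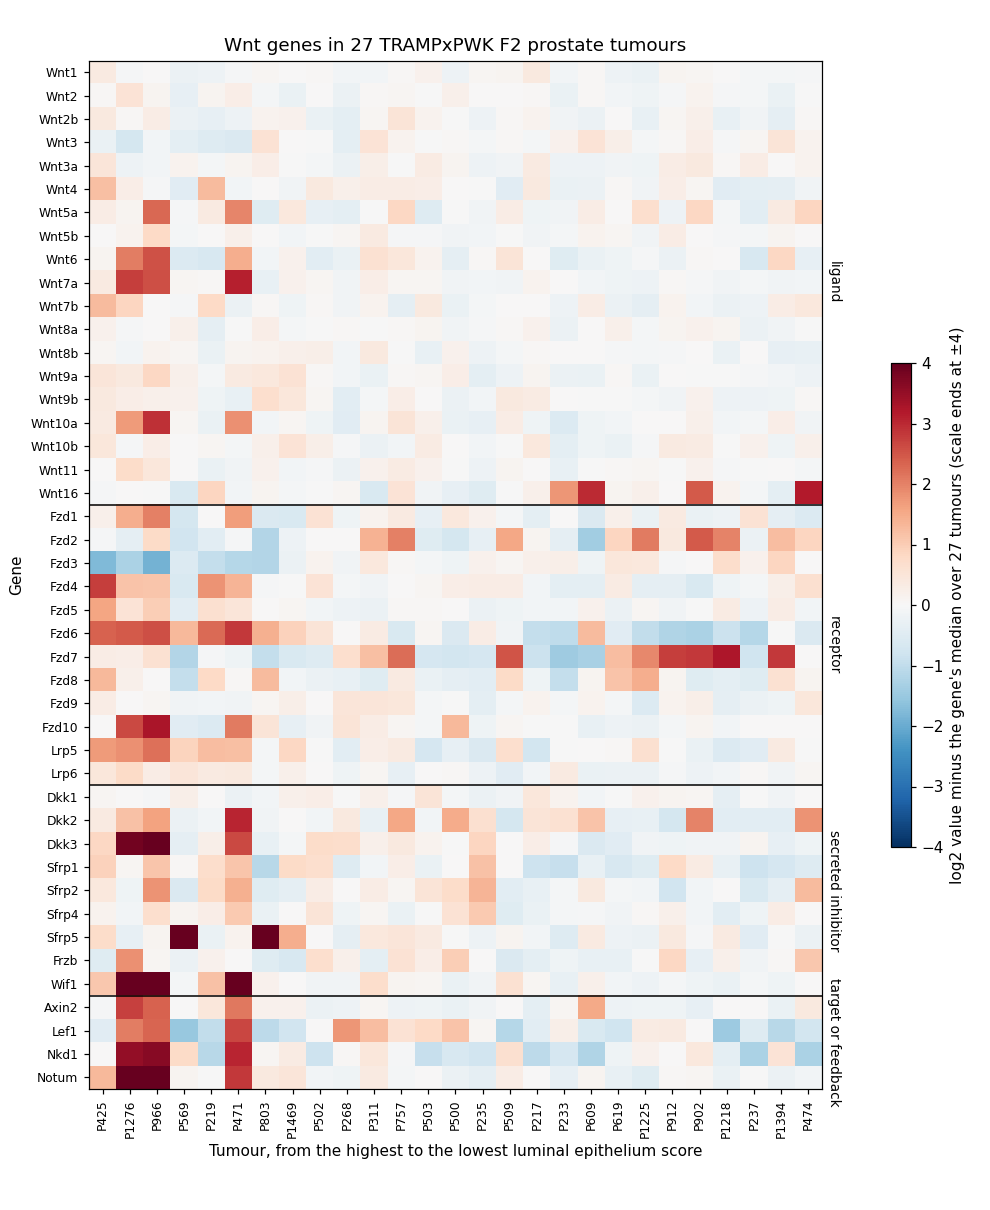
Log2 value of each of 44 Wnt genes minus that gene's median over 27 tumours, with genes in rows by role and tumours in columns from the highest to the lowest luminal epithelium score; colours end at ±4 log2. Red blocks of ligands, inhibitors and targets stand in P1276, P966 and P471. In P425, which has the highest luminal score, Axin2, Nkd1 and Lef1 lie close to their medians, while Wnt4, Wnt7b, Notum and Wif1 lie above theirs.

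The 4 target and feedback genes were all highest in the tumours P966, P471 and P1276. Axin2, a scaffold protein of the complex that destroys beta-catenin, was at 9.27, 8.998 and 9.63 log2 in P966, P471 and P1276, and between 6.52 and 8.42 in the other 24 tumours. Nkd1, which binds Dishevelled and dampens the signal, was at 11.5, 10.9 and 11.4 log2 in these 3 and between 6.60 and 8.65 in the others. Its lowest value among the 3 lay 4.78-fold above the highest of the other 24. Notum, a secreted enzyme that removes the lipid from Wnt proteins, was at 10.1, 8.38 and 10.1 log2 and at most 6.87 elsewhere. Lef1, a transcription factor that carries beta-catenin to DNA, was at 9.33, 9.69 and 9.04 log2, but its other values ran up to 8.78 in P268, so these 3 tumours stood only 0.27 log2 clear. The second array row of Notum also had these 3 tumours highest, at 7.21, 5.54 and 6.51 log2 in P966, P471 and P1276 against at most 5.29 elsewhere. The second row of Axin2 had P1276 and P966 highest at 8.60 and 7.91, while P471 at 7.23 lay below the highest other tumour at 7.85.

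Of the 9 secreted inhibitors 2, Wif1 and Dkk3, were highest in the same 3 tumours. Wif1, which binds Wnt proteins outside the cell, had the widest range of the 44 members at 56.2-fold. It was at 11.5, 10.1 and 10.2 log2 in P966, P471 and P1276, and between 5.72 and 7.18 in the other 24 tumours, a gap of 7.71-fold. Dkk3, a divergent member of the Dickkopf family, was at 11.2, 9.68 and 10.9 log2 there, against 6.43 to 7.87 elsewhere. The other inhibitors did not have these as their 3 highest tumours. Sfrp2 and Sfrp4, decoy proteins with a Frizzled-like domain, were among the highest in P966 (7.05 and 6.17 log2) and P471 (6.69 and 6.57) but not in P1276 (5.07 and 5.39). Dkk2, which blocks or modulates Lrp co-receptors, was at 7.76, 9.21 and 7.34 log2 in P966, P471 and P1276 and between 5.45 and 8.15 in the 24 others. Frzb, also a decoy, was highest in P1276 at 5.94 log2 and at 4.21 and 4.12 in P966 and P471, close to its median of 4.12.

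Of the ligands with a wide range, Wnt6, Wnt7a and Wnt10a, were highest in P966, P471 and P1276 too. Wnt7a, a ligand known from limb and reproductive tract patterning, was at 8.39, 8.94 and 8.57 log2 there and between 5.53 and 6.17 in the other 24 tumours, so its lowest value among the 3 was 4.66-fold above the rest. Outside these 3 tumours its whole range was 0.63 log2. Wnt10a, a ligand of skin appendages and teeth, was at 9.9996, 8.90 and 8.77 log2, against 6.52 to 7.60 elsewhere. Wnt6 was at 8.47, 7.41 and 7.995 log2, against 5.28 to 6.77. Wnt5a, a ligand mostly linked to the non-canonical branch, was high in P966 and P471 at 7.43 and 7.10 log2 but was at 5.25 in P1276, within the 4.62 to 6.00 of the others. Of the receptors, Fzd10 was at 7.04, 5.85 and 6.42 log2 in the 3 tumours and at most 5.08 elsewhere, and Fzd1 at 9.20, 8.87 and 8.64 against at most 7.78. Fzd6 was also highest in these 3, at 8.78, 9.04 and 8.67 log2, but P425 followed at 8.58 and P219 at 8.47.

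**Figure D2:**
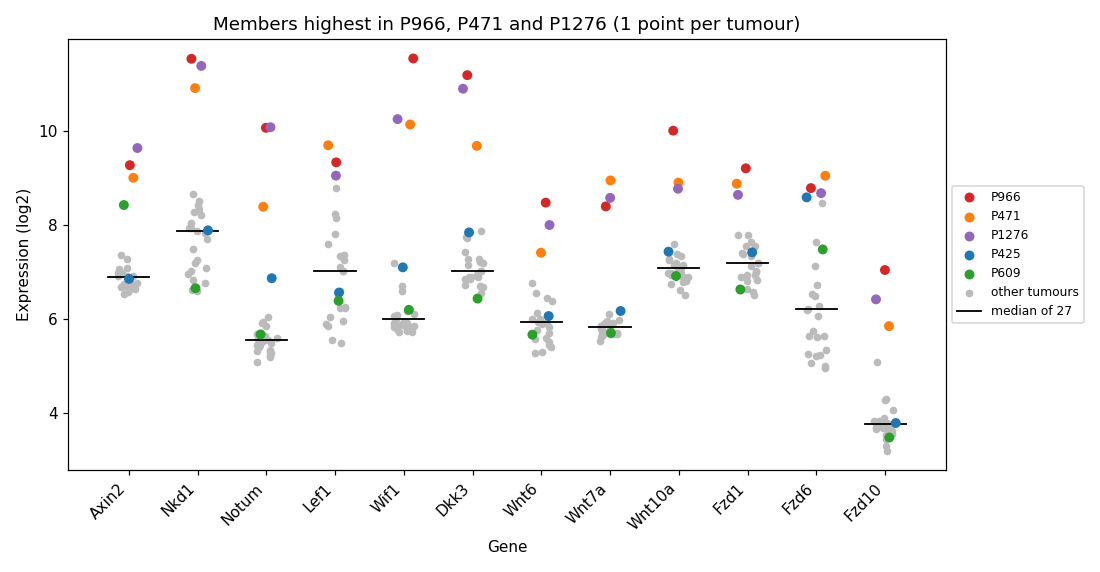
Log2 expression of the 12 members whose 3 highest tumours were P966, P471 and P1276, with 1 point per tumour, 5 tumours in colour and a bar at the median of 27 tumours. The coloured points of the 3 tumours lie above all others for each gene, P425 lies among the other tumours for Axin2, Nkd1 and Lef1, and P609 stands high for Axin2 but not for Nkd1 or Notum.

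In all, P966, P471 and P1276 were the 3 highest tumours for 12 of 44 members, against 2.64% of all genes. For 6 of them, Wnt7a, Wnt10a, Dkk3, Wif1, Nkd1 and Notum, each of the 3 lay more than 1 log2 above the other 24 tumours, against 0.365% of all genes. They were the 3 lowest tumours for 0 members, against 1.76% of all genes. These tumours were picked out because the members were high in them, so the counts describe the arrays and were not tested. Values of 12 of 44 members fell into 2 separate clusters by a Gaussian mixture, against 7.9% of all genes. The higher cluster was exactly these 3 tumours for Wnt6, Wnt7a, Wnt10a, Fzd1, Fzd10, Dkk3, Wif1, Nkd1 and Notum, and these with P609 for Axin2. The remaining 2 were Wnt16 and Fzd3.

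Marker genes of cell types differed in the same 3 tumours, and in bulk tissue fewer cells of a type and less RNA per cell cannot be told apart. The score of a marker list is the mean of its genes' log2 values, each centred on the gene's mean over the tumours. The luminal epithelium score (13 genes) was 2.57, 1.99 and 2.62 in P966, P471 and P1276, and ran from -1.45 to 2.77 in the other 24. The neuroendocrine score (15 genes measured) was -2.46, -3.33 and -1.86, against -2.09 to 0.77. The fibroblast and matrix score (12 genes measured) was 1.15, 1.30 and 0.85, the 3 highest of all, and all 12 of its genes were above their median in the 3 tumours. The basal epithelium score (6 genes measured) was 0.95, 0.85 and 1.33, also the 3 highest, but only 3 of its 6 genes were above their median in all 3 tumours. Krt5 was not among those 6. The endothelium score (10 genes) was 0.43, 0.75 and 0.67 in P966, P471 and P1276, against -1.08 to 0.62, and 9 of its genes were above their median in all 3. The macrophage score (11 genes) was 0.88, 1.19 and 0.15, against -1.34 to 1.13, with 4 genes above their median in all 3. The part of these marker genes in the levels of the Wnt genes was not tested apart from the slopes given below. P425 shared the high luminal score (2.77) and the low neuroendocrine score (-2.09), with a fibroblast and matrix score of 0.23. In P425 Axin2 was at 6.85 log2, Nkd1 at 7.88 and Lef1 at 6.56, each close to the median of the other tumours, while Notum at 6.87 and Wnt7a at 6.17 were the fourth highest of 27. Wif1 at 7.10 log2, Dkk3 at 7.84 and Wnt10a at 7.43 each ranked 5 of 27 in P425. Fzd1, Wnt6 and Fzd10 ranked 9, 10 and 11 there. Together with P425, the 3 tumours were the 4 lowest on the neuroendocrine score, and these 4 were the 4 highest for 3 members, Wnt7a, Fzd6 and Notum, against 1.6% of all genes, and the 4 lowest for 0, against 2.84%. Since 3 of these 4 tumours were picked because members were high in them, this count was not tested either.

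P609 had a high Axin2 level without high Nkd1, Notum or Lef1. Axin2 was at 8.42 log2 there, the fourth highest of 27, while Nkd1 was at 6.65, Notum at 5.67, Lef1 at 6.38 and Wif1 at 6.19. Nkd1 was lower in only 2 other tumours. Myc, another gene that beta-catenin can induce, was highest of all tumours in P609 at 9.02 log2. Wnt16 was at 7.06 log2 and the R-spondin receptor gene Lgr6 at 8.29 in the same tumour. Genes were also fitted on the Axin2 level among the 23 tumours of the lower Axin2 cluster. There 0 of 43 members passed (limma, adjusted p under 0.05), against 0.00451% of all genes rising and 0.00451% falling, and with a background this near 0 the count says nothing particular about the members. Fzd6, Wif1, Lrp6 and Lrp5 were the 4 of 43 members with an unadjusted p under 0.05 (limma), beside 1923 of 22179 genes. The largest slopes were those of Fzd6 at 0.51 ± 0.19 log2 (SE) per SD of Axin2 (adjusted p = 0.479 by limma) and Fzd7 at -0.42 ± 0.30 (adjusted p = 0.736). Nkd1, Notum and Lef1 had slopes of -0.11 ± 0.13, 0.09 ± 0.08 and -0.34 ± 0.17, none of which passed. The genes past the threshold in this fit were Mccc1, a subunit of an enzyme of leucine breakdown (0.44 ± 0.07, adjusted p = 0.0164), and the growth factor receptor gene Fgfr3 (-0.36 ± 0.06, adjusted p = 0.0213), and neither passed without P219 and P474, the tumours farthest on Axin2.

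Other members followed other tumours. Wnt16, a ligand, was at 7.26 log2 in P474, 7.06 in P609, 6.52 in P902 and 5.84 in P233, and at most 4.93 in the remaining 23, with a median of 4.08. Sfrp5, a secreted decoy receptor, was at 9.76 log2 in P569 and 9.56 in P803, followed by P1469 at 6.92 and at most 6.22 elsewhere. P569, P803 and P1469 had high luminal scores (2.06, 1.96 and 1.88) together with neuroendocrine scores above 0 (0.21, 0.70 and 0.54). The receptors Fzd2 and Fzd7 varied without a clear break, Fzd2 between 4.45 and 8.29 log2 (median 5.84) and Fzd7 between 5.33 and 9.98 (median 6.76). They shared 8 of their 9 highest tumours, which included P902, P1218, P1225, P757 and P509. Both were among the 3 lowest in P569 and P609. Fzd8 was between 4.75 and 7.17 log2 (median 5.71), with P1225, P425, P803 and P619 highest. Fzd4, which also serves as the Norrin receptor in blood vessels, was highest in P425 at 9.78 log2 and P219 at 8.83, then in P471, P1276 and P966 (8.38, 8.17 and 8.13), with a median of 7.03 and a lowest value of 6.41. Lrp5 was highest in P966 (9.96), P1276 (9.57) and P425 (9.45) and lowest in P217 (7.01), with a median of 7.75. Sfrp1, another decoy, ran from 6.15 to 8.44 log2 (median 7.26) with its highest value in P235.

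Fzd3, a receptor of axon guidance in the nervous system, was low in tumours of high luminal score. It was lowest in P966 (6.999 log2), P425 (7.14), P1276 (7.64) and P803 (7.73) and highest in P1394 (9.74), with a median of 8.90. The 8 tumours of higher luminal score were its 8 lowest, which held for this 1 member of 44, against 0.6% of all genes. They were the 8 highest for 0 members, against 0.933% of all genes.

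**Figure D3:**
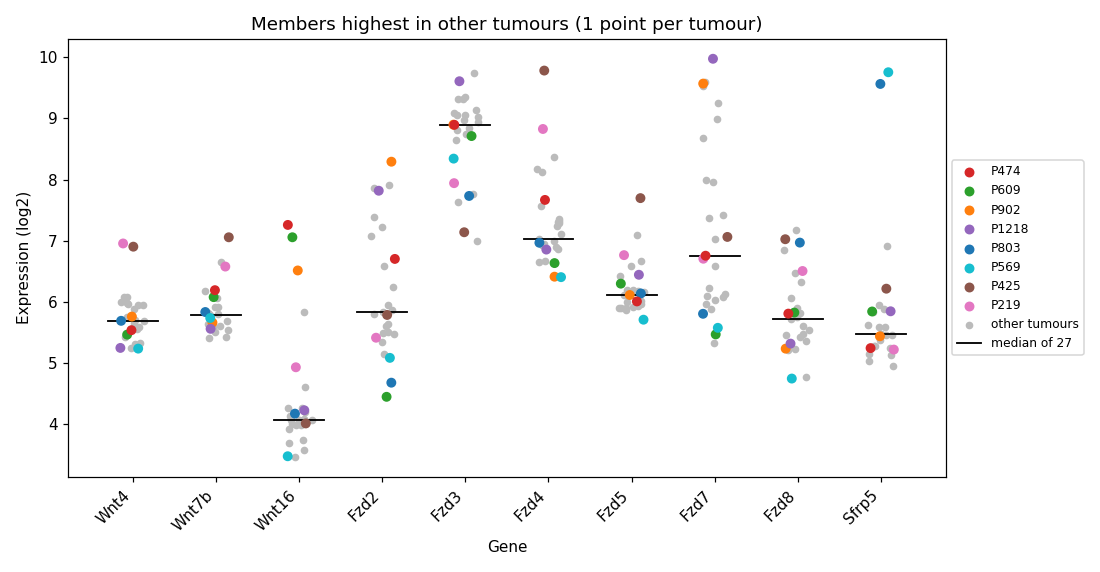
Log2 expression of 10 members whose highest tumour was not P966, P471 or P1276, with 1 point per tumour, 8 tumours in colour and a bar at the median of 27 tumours. Sfrp5 stands apart in P569 and P803, Wnt16 in P474, P609 and P902, and Wnt4 in P219 and P425, while Fzd2 and Fzd7 are spread over their whole range.

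Many Wnt genes, 6 of the 9 secreted inhibitors among them, rose with the fibroblast and matrix score. Genes were fitted on this score over all tumours, with the slope in log2 per SD of the score. With the fibroblast and matrix score, 18 of 44 members rose and 2 fell, against 7.82% and 5.63% of all genes (limma, adjusted p under 0.05 over 22168 genes). The median slope was 0.14 for the members and -0.01 for all genes. By role, 4 of 19 ligands, 5 of 12 receptors, 6 of 9 inhibitors and 3 of 4 targets rose. The steepest were Wif1 (0.96 ± 0.22, adjusted p = 0.00562), Dkk3 (0.84 ± 0.16, adjusted p = 0.00165), Notum (0.77 ± 0.21), Fzd6 (0.76 ± 0.20), Lef1 (0.73 ± 0.17) and Dkk2 (0.63 ± 0.14, adjusted p = 0.00382). The lowest adjusted p was that of Sfrp2 (0.53 ± 0.08, adjusted p = 1.4e-04 by limma). Fzd3 (-0.39 ± 0.11) and the ligand Wnt3 (-0.18 ± 0.06) fell. Most of these calls rested on P966, P471 and P1276, whose fibroblast scores were the highest. Without these 3 tumours 1 member still passed, Sfrp2 at 0.44 log2 per SD (adjusted p = 0.00448), and 111 of 22168 genes rose and 4 fell. There Wif1 was at 0.06 and Dkk3 at 0.21, while Dkk2 and Sfrp1 were each at 0.37, Fzd4 at 0.24 and Sfrp4 at 0.19, none of which passed. Leaving out P966, P471 or P1276 alone gave 9, 7 and 13 called members. In that order 1012, 793 and 1361 of 22168 genes rose and 506, 340 and 795 fell.

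Sfrp2 was at 7.05 log2 in P966, 6.69 in P471, 6.63 in P235 and 6.53 in P474, and was lowest in P912 at 4.51. P235 had a fibroblast and matrix score of 0.75 and P474 of 0.46. In P1276, with a score of 0.85, Sfrp2 was at 5.07 log2, below its median of 5.26. The second array row of Sfrp2 ranged only from 4.08 to 5.02 log2. Its highest tumour was P803, which had a fibroblast and matrix score of -0.84. Adding the luminal score as a covariate, with which 488 of 22168 genes rose and 172 fell, left 5 members called. Adding the smooth muscle, macrophage and endothelium scores left 0, and 0 of all 22168 genes passed in that fit, in which 8 members and 919 genes had an unadjusted p under 0.05 (limma). The slopes there were 0.97 for Lef1, 0.82 for Dkk3, 0.82 for Wif1, 0.78 for Dkk2, 0.78 for Fzd10, 0.37 for Sfrp2, 0.29 for Sfrp1 and 0.09 for Sfrp4.

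**Figure D4:**
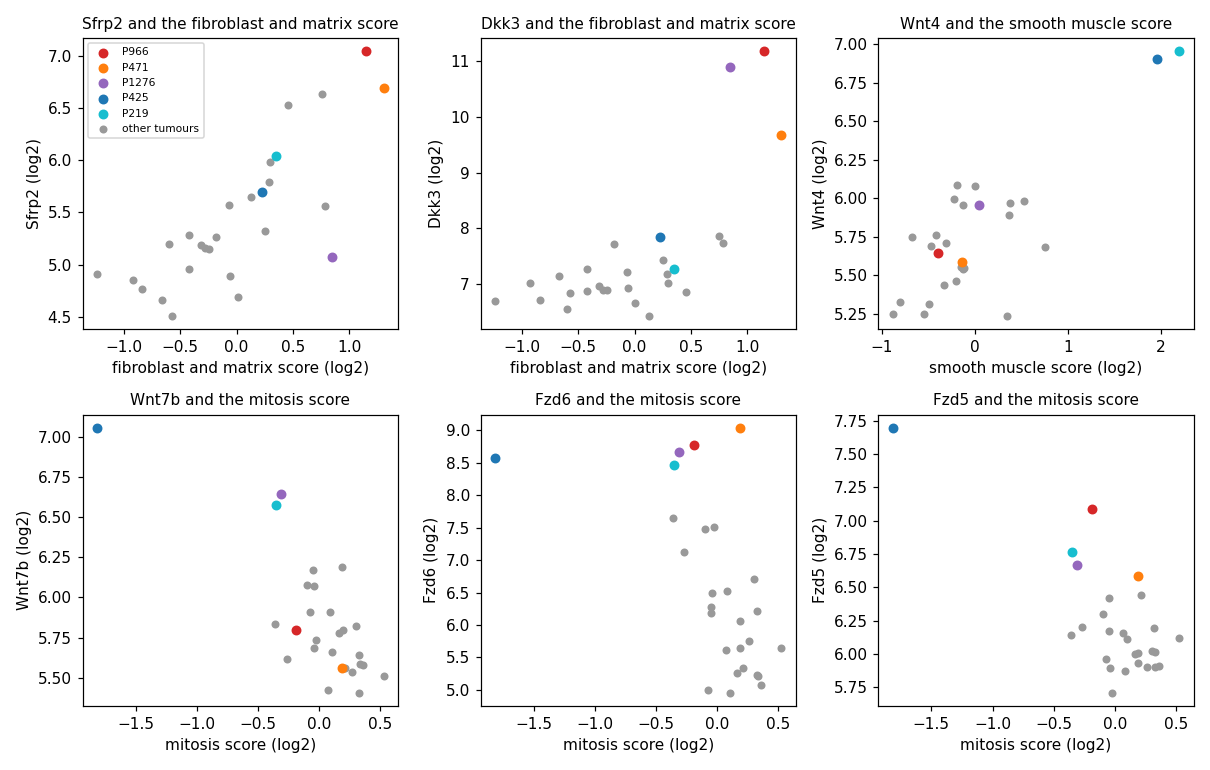
Log2 level of a Wnt gene (vertical axes) against a marker score in log2 units (horizontal axes), with 1 point per tumour and 5 tumours in colour. Sfrp2 rises along the fibroblast and matrix score among the uncoloured tumours, and Dkk3 is highest in P966, P471 and P1276. The smooth muscle panel is stretched by P425 and P219, and the mitosis panels by P425.

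Along the smooth muscle score 3 of 44 members rose and 0 fell, against 5.06% and 2.94% of all genes. These counts were near those of all genes and say nothing particular about the members. Wnt4, a ligand with roles in kidney and reproductive tract, rose by 0.34 ± 0.05 log2 per SD (adjusted p = 5.4e-05 by limma). It was at 6.96 log2 in P219 and 6.90 in P425, and at most 6.08 in the other tumours. Fzd4 (0.47 ± 0.12, adjusted p = 0.013) and Wnt7b (0.23 ± 0.06, adjusted p = 0.0187) rose as well. P219 and P425 also had the highest smooth muscle scores, 2.20 and 1.97 against at most 0.76 elsewhere. The same 2 tumours had the highest adipose scores, 2.93 in P425 and 1.34 in P219, with P235 next at 0.83. P219 had the highest skeletal muscle score too, 2.75, followed by P268 at 1.87. Which of these scores Wnt4, Fzd4 and Wnt7b followed was not tested. Without P219 and P425, 0 members passed, and 3 of 22171 genes rose and 0 fell. Without P966 alone 7 members passed, and 1464 genes rose and 1031 fell.

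Along the mitosis score 6 of 44 members fell and 1 rose, against 12.6% and 11.8% of all genes. The falling count was close to that of all genes and says nothing particular about the members. Fzd6 fell by 0.77 ± 0.20 log2 per SD (adjusted p = 0.00617 by limma), Fzd4 by 0.51 ± 0.11, Lrp5 by 0.43 ± 0.13, Fzd5 by 0.33 ± 0.06, Wnt7b by 0.31 ± 0.05 (adjusted p = 6.2e-05) and Wnt4 by 0.25 ± 0.07. Fzd3 rose by 0.45 ± 0.10 (adjusted p = 0.00228). No inhibitor and no target or feedback gene passed. P425 had the lowest mitosis score, -1.82 against at least -0.36 elsewhere. Without P425 3 members passed, and 1330 of 22166 genes rose and 1198 fell. Fzd4, Fzd5, Lrp5 and Wnt4 did not pass there (adjusted p = 0.324, 0.0917, 0.0703 and 0.297 by limma). With the luminal score as a covariate 2 members passed, and 927 genes rose and 760 fell. The lost members included Fzd6 (adjusted p = 0.797 by limma) and Lrp5 (adjusted p = 0.783).

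The luminal and neuroendocrine scores fell into separate clusters and were fitted within clusters. Within the 19 tumours of lower luminal score, 0 of 44 members passed, against 0.704% of all genes rising and 0.0361% falling (limma). An unadjusted p under 0.05 was found for 5 of 44 members and 1953 of 22167 genes. The largest slopes were those of Lef1 (0.45 ± 0.17, adjusted p = 0.345) and Fzd7 (-0.42 ± 0.35, adjusted p = 0.827). Dkk3 had 0.27 ± 0.07 (adjusted p = 0.0713). Within the 8 tumours of higher luminal score, 0 of 44 members and 0.0% of all genes passed in either direction. There 7 of 44 members and 2149 of 22167 genes had an unadjusted p under 0.05 (limma). The largest slopes there were Notum at 1.18 ± 0.52 and Dkk3 at 1.12 ± 0.52 (adjusted p = 0.512 and 0.536). Within the 23 tumours of higher neuroendocrine score, 0 of 44 members and 0.0% of all genes passed. There 6 of 44 members and 1650 of 22165 genes had an unadjusted p under 0.05 (limma). The largest slopes there were Fzd6 at -0.28 ± 0.19 and Fzd7 at -0.26 ± 0.32 (adjusted p = 0.856 and 0.957).

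Other genes of the pathway were taken from lists made by role, 48 genes in all. P966, P471 and P1276 were the 3 highest tumours for 8 of the 48, namely Rnf43, Znrf3, Kremen1, Apcdd1, Nkd2, Vangl1, Ccnd1 and Cd44, against 2.64% of all genes. These tumours had been picked because Wnt genes were high in them, so the count was not tested. Rnf43 and Znrf3 are membrane ubiquitin ligases that remove Frizzled receptors and are themselves induced by the pathway. Rnf43 was at 10.1, 10.1 and 10.2 log2 in P966, P471 and P1276, and Znrf3 at 9.78, 9.63 and 9.87 against at most 8.46 elsewhere. Rnf43 was also high in P425 at 8.53 and P219 at 8.315, against a median of 5.56 in the 24 others. Apcdd1, a membrane-bound Wnt inhibitor, was at 11.6, 11.1 and 11.8 log2 against at most 9.65. Cd44, a cell surface receptor for hyaluronan, was at 9.71, 9.90 and 9.42, then at 8.28 in P425 and 8.22 in P219, with a median of 6.21 in the 24 others. For Rnf43 and Cd44 the higher of 2 separate clusters held these 5 tumours. Sp5, a transcription factor target, was high in P1276 (7.40) and P966 (6.90) but at 5.72 in P471, and it was at 6.82 in P425. Beta-catenin's own gene Ctnnb1 ranged little, between 11.1 and 11.8 log2.

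Apc2, a neural relative of Apc, was at 6.86, 6.79 and 7.05 log2 in P966, P471 and P1276 and at 6.89 in P425, with a median of 8.73 in the 24 others. The 8 tumours of higher luminal score were its 8 lowest, with P803, P1469 and P569 at 7.34, 7.38 and 7.53. That held for 1 of the 48 genes, against 0.6% of all genes. Celsr3, a neural cadherin of planar polarity, was at 6.13, 5.06 and 6.50 log2, and its median in the others was 9.16. The R-spondins amplify Wnt signals through Lgr receptors. Rspo1 was highest in P619 (8.83), P757 (8.49) and P1225 (8.27) and at most 7.24 elsewhere. Lgr5, an R-spondin receptor of stem cells, was highest in P471 (8.61) and P803 (8.06), and Lgr6 in P474 (9.28) and P609 (8.29). The last 2 tumours were also the highest for Wnt16.

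**Figure D5:**
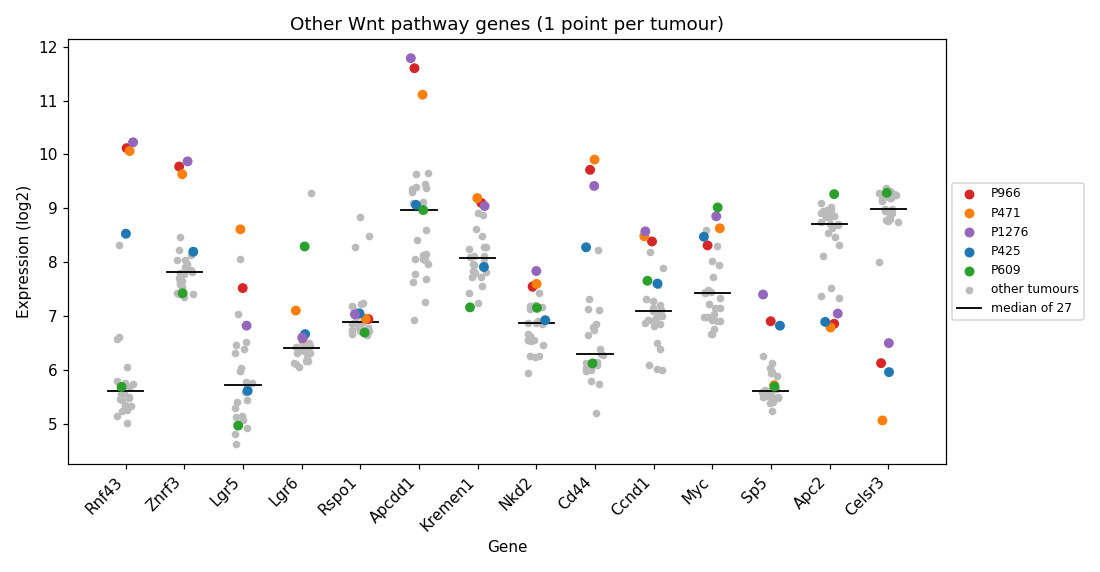
Log2 expression of 14 other genes of the Wnt pathway, with 1 point per tumour, 5 tumours in colour and a bar at the median of 27 tumours. Rnf43, Znrf3, Apcdd1 and Cd44 lie above all other tumours in P966, P471 and P1276, with P425 next for Rnf43 and Cd44. Apc2 and Celsr3 lie low in these 3 and in P425.

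With the fibroblast and matrix score 10 of the 48 pathway genes rose and 4 fell, against 7.82% and 5.63% of all genes. Rnf43 (1.11 ± 0.22) and Znrf3 (0.37 ± 0.11) rose among 9 R-spondin, receptor and ligase genes. Wls, the carrier of Wnt proteins to the cell surface, rose (0.79 ± 0.16) and Porcn, the enzyme that lipidates them, did not pass. Of 15 cytoplasmic and nuclear effectors, Tcf7l2 (0.52 ± 0.14) and Tcf7l1 (0.39 ± 0.11) rose and 2 fell, Apc2 most (-0.41 ± 0.13). Of 11 alternative receptor and planar polarity genes, Vangl1 (0.51 ± 0.12) and Ror1 (0.44 ± 0.10) rose, and Celsr3 and Celsr2 fell. Of 4 other targets 3 rose, with Cd44 (0.93 ± 0.16) and Ccnd1 (0.55 ± 0.09) steepest, and of 7 other inhibitors none passed. With the smooth muscle score 3 of 48 rose (Wls, Tcf7l2 and Rspo2) and 3 fell (Vangl2, Ryk and Apc), against 5.06% and 2.94% of all genes. The rising count was near that of all genes. With the mitosis score 6 rose and 7 fell, which is close to the 11.8% and 12.6% of all genes, and Celsr3 (0.58 ± 0.20) and Tcf7l2 (-0.44 ± 0.14) had the largest slopes each way. Within the 19 tumours of lower luminal score 1 passed, Rnf43, which rose (0.36 ± 0.06, adjusted p = 0.0025). Without P502 and P268, the tumours farthest on that score, 0 of 22167 genes passed, Rnf43 included, and without P502 alone 1 gene rose and 1 fell, against 156 and 8 over the 19 tumours. In the Axin2 fit, the neuroendocrine fit and the fit within 8 tumours 0 of the 48 passed.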

How the data were processed

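Total RNA of 27 snap-frozen tumours was labelled with biotin and hybridised to 1 array each, per the labels. The deposited log2 expression values (41345 rows, from 1.68 to 14.5) were made by the authors with Partek, per the submitters' processing notes; the notes used here do not say how background, summarisation and normalization were handled. Array medians lay between 5.67 and 5.82 and pairwise array correlations between 0.891 and 0.986, so values were used as normalized and no array was counted as a repeat. Arrays hold no read depth, and their number limits the precision. Nothing in the labels gives a batch.

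Of the rows, 23521 had 1 gene symbol, 1814 several and 16010 none in the platform table. Genes with several rows were represented by their highest-mean row. All 44 members were tested with no filter on low values. Separate clusters were called with mclust 6.1.1 if a 2-component mixture had a BIC gain over 6 and Ashman's D over 2 with 3 or more tumours per cluster; such covariates were fitted inside each cluster holding 6 or more. Slopes came from limma 3.58.1 (lmFit, eBayes with a trend, R 4.3.3), two-sided, adjusted by Benjamini-Hochberg over all genes; genes of a score were left out of its own fit. The fits were also run on simulated data with independent genes and a normally distributed covariate. These had no tumours placed far from the rest and no genes varying together, so they do not cover that setting. Alternatives were quantile normalization, median centring, a filter on low genes, another row per gene, ranks of the score, added covariates and tumours left out. The members and lists were chosen with earlier results of these data known. All members are accounted for, slopes are named for the 6 steepest called members or the 2 steepest where none was called, and others named, such as Sfrp2, Sfrp4, the single tumours and the promoter windows, were chosen after their values were seen.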

Additional observations from a re-analysis of the deposited data

How the results depend on the processing

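Leaving out each tumour in turn gave 7 to 21 members called with the fibroblast and matrix score (20 over all tumours), 1 to 7 with the smooth muscle score (3), 3 to 9 with the mitosis score (7), and 0 to 1 within the 19 tumours of lower luminal score (0), where the 1 came without P235. Without P235, 260 of 22167 genes rose and 11 fell in that fit. For the smooth muscle score the count was 1 without P425 or P219 and 7 without P966. Over all 22171 genes, 399 rose and 12 fell without P425, 682 and 451 without P219, and 1464 and 1031 without P966. Counts with the fibroblast and matrix score were 1 without the 2 farthest tumours, P471 and P966, 0 with composition scores as covariates, 5 with the luminal score as a covariate and 1 without P966, P471 and P1276, a setting chosen after seeing the data. In the same order 187, 0, 488 and 111 of 22168 genes rose and 22, 0, 172 and 4 fell. With the smooth muscle score the member counts were 0 without P425, P219 and P268, 0 with ranks of the score, 0 without the 2 farthest tumours and 10 without P966, P471 and P1276. In that order 3, 34, 3 and 2002 of 22171 genes rose and 0, 2, 0 and 1669 fell. With the mitosis score the member counts were 3 without P425, P219 and P268, 3 without the 2 farthest tumours, 13 with composition scores and 2 with the luminal score as covariates. Over all 22166 genes 1327, 991, 2108 and 927 rose and 1443, 783, 2424 and 760 fell, in that order. The fits on Axin2, on the neuroendocrine score and within the 8 tumours of higher luminal score gave 0 called members in each setting run. Over all genes the most called in these fits were 19 rising and 173 falling, within the 8 tumours without P471. Members ranging over 4-fold numbered 14 of 44 without P966, P471 and P1276, against 21.5% of all genes. Slopes changed sign for Fzd10 (-0.0341) and Wnt10a (-0.0496) on the fibroblast and matrix score without P966, P471 and P1276, and for Fzd4 on the smooth muscle score without P425, P219 and P268 (-0.00162) and without the 2 farthest tumours (-0.0131). The cause was not tested. Within the 8 tumours of higher luminal score, composition covariates left too few tumours and were not run. No paired analysis was possible because the labels give 1 group and no replicate numbers. Without detection calls, the ligands and other members of low signal, such as Fzd10 and Frzb, have unknown precision.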
